A study of Mus musculus with 6 samples.

Results

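Semaphorins are guidance proteins that are either secreted (class 3) or held at the cell membrane (classes 4 to 7 in vertebrates), and plexins are their main receptors. Neuropilins are co-receptors that bind class 3 semaphorins and hand the signal to plexins. The 31 genes described here are all rows of the deposited neocortex table whose symbol marks a semaphorin of classes 3 to 7, a plexin of types A to D or a neuropilin, among 15703 genes in all. They comprise 20 semaphorins, 9 plexins and 2 neuropilins, and each of the 31 mouse symbols in RefSeq that meet the rule had a row. Members were chosen by name and not by a measured value, though with earlier results of these data known.

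RNA was sequenced from neocortex of newborn (postnatal day 0) C57BL/6 mice, to ask what changes in expression once Tcf4 is lost. The 3 conditional knockout libraries (cKO 1 to 3) carried the genotype Tcf4 f/f; Emx1Cre/+, and the 3 control libraries (WT 1 to 3) were labelled WT, with no word on whether they carried a floxed allele or Cre. Cre driven by Emx1 recombines in the cortical lineage that yields excitatory neurons and most glia, while cortical interneurons, microglia and vessels arise elsewhere. The sample titles carry a different code for each library but do not say that each came from 1 animal, so p-values measure the spread between these samples. Values are FPKM (fragments per kilobase and per library size), which can be compared between genes because they are per length. Log2 changes are cKO minus WT on log2(FPKM + 1), which understates the change of low genes, and folds are ratios of mean FPKM. A gene is said to rise or fall at an adjusted p under 0.05 from limma with Benjamini-Hochberg adjustment over all 15703 genes, n = 3 per group.

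In the developing cortex, class 3 semaphorins attract or repel axons, dendrites and migrating neurons. A secreted semaphorin usually needs a neuropilin bound to an A-type plexin, with Sema3e and its receptor Plxnd1 as the best known exception. The membrane-bound classes can bind plexins directly, such as Sema4d with Plxnb1, Sema6 proteins with A-type plexins and Sema7a with Plxnc1. Inside the cell, the plexin cytoplasmic domain acts on small GTPases, and through them on actin and microtubules.

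Tcf4 itself was lower in every cKO library (55.3 to 60.6 FPKM) than in any WT library (71.2 to 75.6 FPKM), a value that covers all exons and all cells of the tissue. Reads recovered from the FPKM values came to 25.3 M to 28.8 M per library. The projection neuron factor Neurod6 averaged 296 ± 21.8 FPKM over the WT libraries (mean ± SD) and 352 ± 22.4 FPKM over the cKO libraries, and all 10 markers of neocortical projection neurons on the list had a row. WT 3 stood apart in long genes. Across genes, which are not independent, the deviation of a library from the 6-library mean had a Spearman correlation with exon length of −0.34 in WT 3, −0.08 and 0.01 in WT 1 and WT 2, and 0.10 to 0.21 in the cKO libraries. The members are long, with a median exon length of 7720 bases against 4229 for the table, and WT 3 was the lowest WT library for 23 of the 31 (74.2%), against 38.3% of all genes. Changes after subtracting each library's trend in exon length and GC content are therefore given beside the main ones where they differ in call.

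Of the 31 members, 3 rose in cKO, 7 fell and 21 did not pass. The share called was 32.3%, against 15.8% of all genes (7.22% higher and 8.59% lower). The 3 that rose, Sema3c, Sema3f and Sema3a, are secreted class 3 ligands. The 7 that fell were both neuropilins, the plexins Plxnd1 and Plxna2 and the membrane-bound semaphorins Sema7a, Sema4d and Sema6d. Sema7a and Plxnd1 fell by more than 1 on the log2 scale, and the median change of the 31 was 0.02, beside 0.00 for all genes. In whole tissue, fewer cells of a type and less RNA per cell cannot be told apart. With values rescaled to the same sum per library (TPM), which moved the median change of all genes to 0.07, 1773 genes were called higher and 1051 lower, in place of 1134 and 1349, and 4 members were higher and 7 lower. The 2 groups did not overlap in 18 members, 8 of them higher and 10 lower in cKO. Groups without overlap were found in 37.3% of all genes, with 18.5% higher and 18.7% lower.

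**Figure D1:**
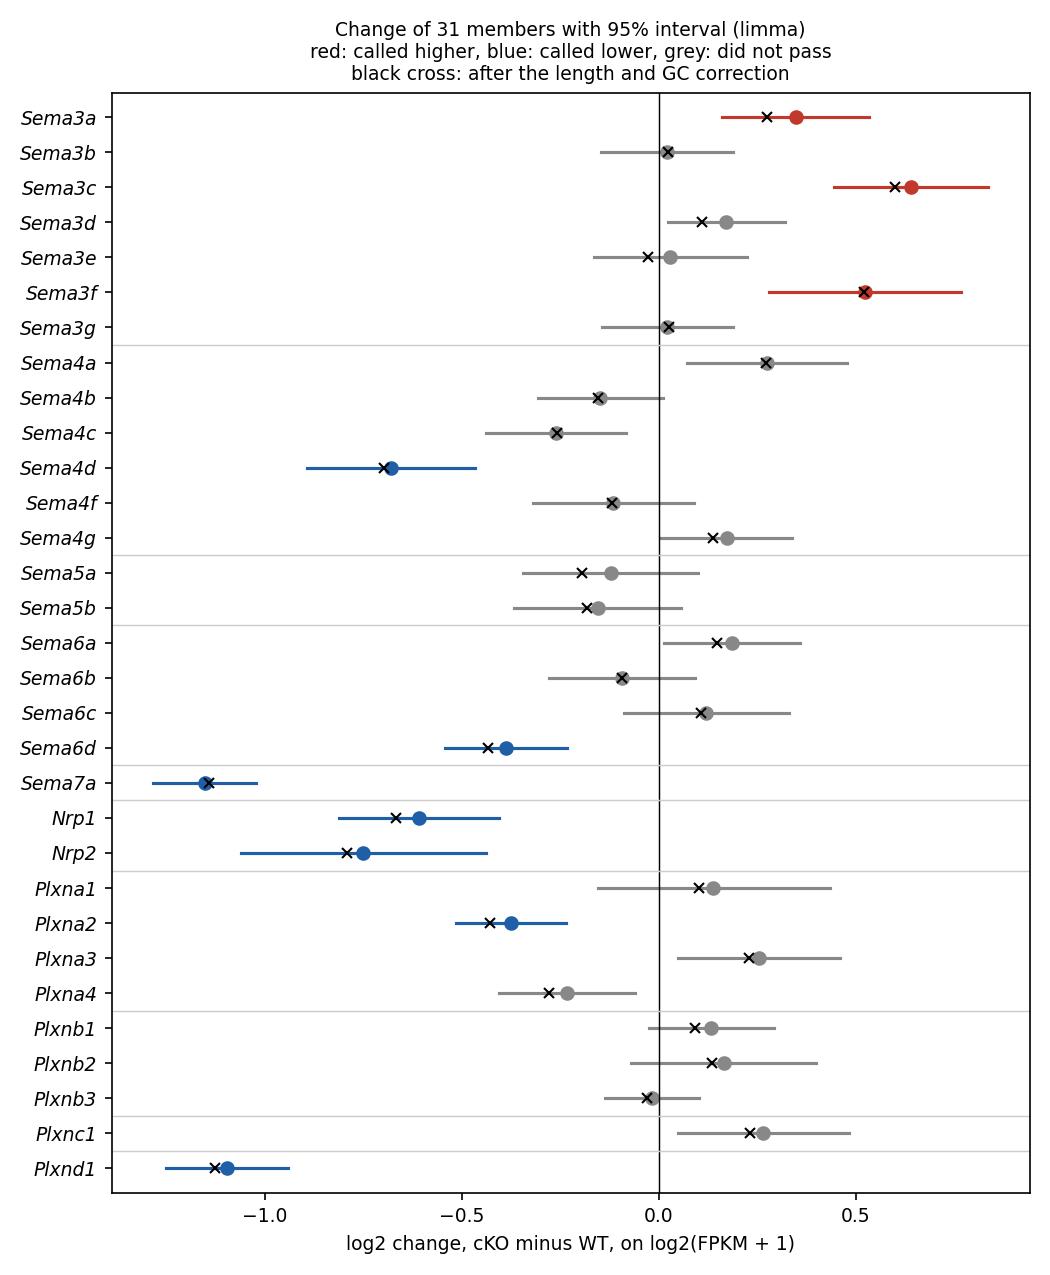
Log2 change (cKO minus WT, on log2(FPKM + 1), horizontal axis) of each of the 31 members, grouped by class, with limma's 95% interval as a bar and the value after the length and GC correction as a cross. The 3 genes called higher (red) all lie in semaphorin class 3, and the 7 called lower (blue) include both neuropilins.

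Among the class 3 ligands, Sema3c showed the largest rise of the 31 genes. Sema3c, a secreted ligand of neuropilins that can attract cortical axons (ENSMUSG00000028780, chromosome 5, 17574281 to 17730268, plus strand, mm10), measured 17.9, 18.6 and 15.4 FPKM in WT 1 to 3 and 24.8, 29.2 and 28.6 FPKM in cKO 1 to 3. Every cKO library lay above every WT library, with cKO 1 the lowest of its group. The mean went from 17.3 ± 1.69 to 27.5 ± 2.38 FPKM, 1.59-fold higher (log2 change 0.64, SE 0.0879, limma adjusted p = 0.00126).

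Sema3f, a repellent that acts mainly through Nrp2 (chromosome 9, 107681500 to 107710475, minus strand), measured 8.41, 8.90 and 6.81 FPKM in WT against 13.8, 10.9 and 11.3 FPKM in cKO. The groups did not overlap, and cKO 1 stood above the other two cKO libraries. It rose 1.49-fold, from 8.04 ± 1.09 to 11.98 ± 1.58 FPKM (log2 change 0.52, SE 0.109, limma adjusted p = 0.0110). Sema3a, the founding repellent of axons and a ligand of Nrp1 (chromosome 5, 13125414 to 13602565, plus strand), was at a lower level, with 3.54, 3.70 and 3.88 FPKM in WT against 4.76, 4.70 and 5.54 FPKM in cKO. All cKO values were higher than the WT values, and cKO 3 was the highest. The mean rose 1.35-fold, from 3.71 ± 0.166 to 4.999 ± 0.470 FPKM (log2 change 0.35, SE 0.0840, limma adjusted p = 0.0210). The call did not hold without WT 1 (limma adjusted p = 0.0812), without cKO 3 (0.0736) and after the length and GC correction (log2 change 0.27, limma adjusted p = 0.0620).

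The remaining class 3 genes were scarce. Sema3e, the ligand of Plxnd1, was at 1.20, 1.06 and 0.859 FPKM in WT against 1.13, 0.979 and 1.12 FPKM in cKO, so the groups overlapped (log2 change 0.03, 95% interval −0.16 to 0.22). Sema3d measured 0.451 ± 0.0417 FPKM in WT against 0.634 ± 0.0733 FPKM in cKO, without overlap, but did not pass (limma adjusted p = 0.110). Sema3b and Sema3g stayed between 0.195 and 0.466 FPKM in every library, which corresponds to 22 to 50 recovered reads. Neither passed (limma adjusted p = 0.873 and 0.867), and with so few reads a small change could be missed. Sema3d, Sema3a, Sema3e and Sema3c lie in that order along chromosome 5 between positions 12383385 and 17730268, and the 2 that rose, Sema3a and Sema3c, are separated by Sema3e. Summed over the 7 genes, class 3 RNA was at 27.8 to 33.4 FPKM in WT against 45.7 to 47.9 FPKM in cKO. Sema3c alone made up most of this sum (17.3 FPKM in WT, 27.5 FPKM in cKO).

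Both class 3 co-receptors fell. Nrp1, a co-receptor for Sema3a and Sema3c and for VEGF (ENSMUSG00000025810, chromosome 8, 128358604 to 128503363, plus strand), measured 18.1, 18.3 and 15.7 FPKM in WT against 10.1, 12.5 and 10.5 FPKM in cKO. WT 3 was the lowest of its group and still above each cKO library. Its mean fell from 17.4 ± 1.44 to 11.1 ± 1.27 FPKM, 1.57-fold lower (log2 change −0.61, SE 0.0906, limma adjusted p = 0.00189). Nrp2, which binds Sema3f and Sema3c (ENSMUSG00000025969, chromosome 1, 62703285 to 62818695, plus strand), was at 6.25, 5.66 and 4.06 FPKM in WT against 2.63, 3.26 and 2.32 FPKM in cKO. The spread among WT libraries was wide, and the lowest, WT 3, was above the highest cKO value. On average it fell from 5.33 ± 1.13 to 2.74 ± 0.481 FPKM, 1.95-fold lower (log2 change −0.75, SE 0.140, limma adjusted p = 0.00628). Together, the neuropilins summed to 19.8 to 24.3 FPKM in WT against 12.8 to 15.8 FPKM in cKO.

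**Figure D2:**
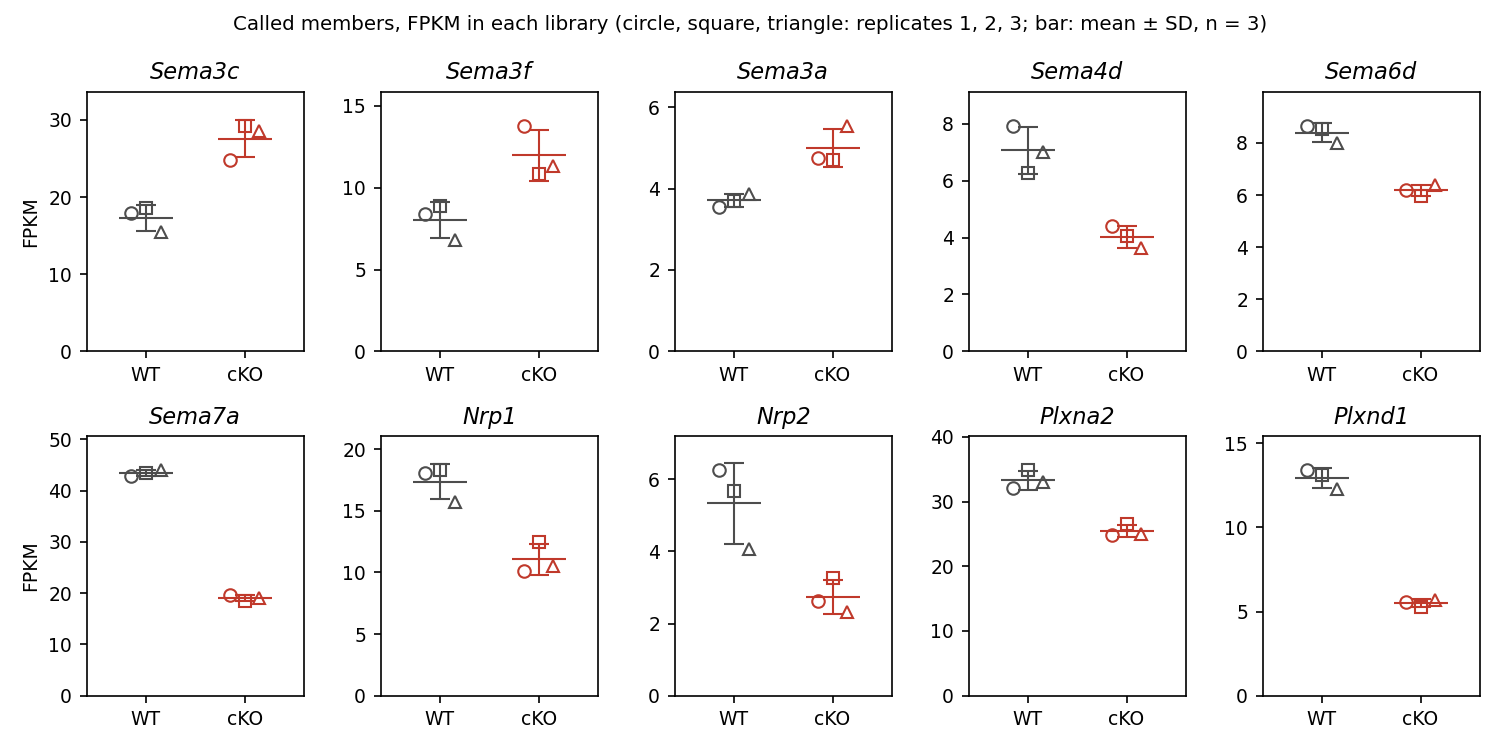
FPKM (vertical axes from 0, a scale of its own for each gene) of the 10 members that passed, in WT (grey) and cKO (red), with 1 symbol per library and a bar for mean ± SD, n = 3. In none of the 10 genes do the groups overlap, and in Sema7a and Plxnd1 the libraries of a group lie close together.

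Of the plexins, Plxnd1 and Plxna2 fell, none rose and 7 did not pass. Plxnd1, the receptor that binds Sema3e without a neuropilin (ENSMUSG00000030123, chromosome 6, 115954811 to 115995005, minus strand), measured 13.4, 13.1 and 12.3 FPKM in WT against 5.59, 5.24 and 5.70 FPKM in cKO. The libraries of each group differed by little, and the gap between the groups was several times the spread within them. The mean fell from 12.9 ± 0.597 to 5.51 ± 0.238 FPKM, 2.35-fold lower (log2 change −1.10, SE 0.0695, limma adjusted p = 9.72e-06). Its ligand Sema3e, as given above, did not pass.

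Plxna2, a receptor of Sema6 proteins and a partner of neuropilins (chromosome 1, 194618218 to 194816869, plus strand), measured 32.0, 34.9 and 33.0 FPKM in WT against 24.8, 26.5 and 25.1 FPKM in cKO. No cKO library reached the WT range. This was a fall from 33.3 ± 1.44 to 25.4 ± 0.942 FPKM, 1.31-fold lower (log2 change −0.37, SE 0.0627, limma adjusted p = 0.00365). Plxna4, which pairs with Nrp1 in the response to Sema3a, was at 41.5, 43.3 and 35.9 FPKM in WT against 35.0, 34.5 and 32.4 FPKM in cKO. These groups did not overlap, but WT 3 lay close to the cKO libraries and the gene did not pass (log2 change −0.23, limma adjusted p = 0.0667). It passed without WT 3 (log2 change −0.31, limma adjusted p = 0.0114) and after the length and GC correction (−0.28, limma adjusted p = 0.00730). It did not pass without WT 1 (limma adjusted p = 0.1925) or with TPM (0.195).

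The other two A-type plexins had higher cKO means. Plxna3, the partner of Nrp2 in the response to Sema3f, was at 31.8, 34.5 and 27.9 FPKM in WT against 41.2, 37.7 and 33.9 FPKM in cKO (log2 change 0.25, limma adjusted p = 0.0895). It passed without WT 2 (limma adjusted p = 0.0447) but was further from the threshold without cKO 1 (0.268). Plxna1 was at 35.7, 35.7 and 23.9 FPKM in WT against 35.7, 34.3 and 33.5 FPKM in cKO. Here WT 3 alone was low, and without it the change went from 0.14 to −0.05 on the log2 scale. An antisense gene shares 10.7% of the exon length of Plxna1, and the counting is not stated to use strand. The A-type plexins together summed to 120.6 to 148 FPKM in WT against 125 to 137 FPKM in cKO, so their total overlapped between the groups.

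Plexins of types B and C did not pass. Plxnb1, the Sema4d receptor, measured 17.4 ± 0.888 FPKM in WT against 19.1 ± 1.27 FPKM in cKO, and Plxnb2, a receptor of class 4 semaphorins in neural progenitors, 25.8 ± 4.22 and 28.8 ± 1.34 FPKM. Plxnb3 was the least abundant member, with 0.146 to 0.206 FPKM and 23 to 32 recovered reads per library. Plxnc1, the Sema7a receptor, measured 8.09, 8.15 and 6.17 FPKM in WT against 8.95, 8.94 and 9.43 FPKM in cKO. Its cKO libraries all lay above the WT libraries, with WT 3 farthest below, and the difference did not pass (log2 change 0.26, limma adjusted p = 0.0932).

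Of the membrane-bound ligands, Sema7a, Sema4d and Sema6d fell. Sema7a, a semaphorin with a lipid anchor that promotes axon growth (ENSMUSG00000038264, chromosome 9, 57940112 to 57962865, plus strand), measured 42.9, 43.5 and 44.0 FPKM in WT against 19.6, 18.4 and 19.0 FPKM in cKO. The 3 libraries of each group agree closely, and the 2 groups lie far apart. The mean fell from 43.5 ± 0.542 to 19.0 ± 0.583 FPKM, 2.29-fold lower (log2 change −1.15, SE 0.0582, limma adjusted p = 2.91e-06). The Sema7a receptor Plxnc1 did not pass. Integrins also bind Sema7a, and their subunits Itgb1 (30.7 ± 0.280 FPKM in WT against 29.4 ± 2.02 FPKM in cKO, limma adjusted p = 0.553) and Itga1 (1.70 ± 0.238 and 1.49 ± 0.183 FPKM, limma adjusted p = 0.450) did not pass.

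Sema4d, a ligand of Plxnb1 (chromosome 13, 51685529 to 51793747, minus strand), measured 7.93, 6.28 and 7.01 FPKM in WT against 4.40, 4.06 and 3.63 FPKM in cKO. The highest cKO library lay below the lowest WT library. The mean fell from 7.07 ± 0.825 to 4.03 ± 0.383 FPKM, 1.75-fold lower (log2 change −0.68, SE 0.0957, limma adjusted p = 0.00143). The other 5 class 4 genes did not pass. Sema4c, a ligand of Plxnb2, was at 30.5, 24.6 and 28.3 FPKM in WT against 23.1, 22.2 and 23.4 FPKM in cKO, just short of the threshold (log2 change −0.26, limma adjusted p = 0.0521). It passed without WT 2 (limma adjusted p = 0.0107) and after the length and GC correction (log2 change −0.26, limma adjusted p = 0.0387). Without WT 1, Sema4c was further from the threshold (limma adjusted p = 0.183). A gene on the opposite strand shares 7.27% of its exon length. Sema4a had higher values in cKO, with 4.87, 5.32 and 4.59 FPKM in WT against 6.97, 5.64 and 5.91 FPKM in cKO (log2 change 0.27, limma adjusted p = 0.0672). It passed without WT 2 (limma adjusted p = 0.0465) and after the length and GC correction (log2 change 0.27, limma adjusted p = 0.0450). Without cKO 1, Sema4a was further from the threshold (limma adjusted p = 0.217). Sema4b, Sema4f and Sema4g differed between the group means by 1.09-fold to 1.13-fold. Sema4g, the most abundant class 4 gene, was at 29.2 to 29.9 FPKM in WT against 31.2 to 37.4 FPKM in cKO.

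In class 6, Sema6d (chromosome 2, 124089969 to 124667770, plus strand) measured 8.65, 8.54 and 7.99 FPKM in WT against 6.20, 5.95 and 6.38 FPKM in cKO. The groups did not overlap and were narrow. The mean fell from 8.40 ± 0.355 to 6.18 ± 0.219 FPKM, 1.36-fold lower (log2 change −0.39, SE 0.0694, limma adjusted p = 0.00517). Sema6a, Sema6b and Sema6c, which like Sema6d are transmembrane ligands of A-type plexins, did not pass. Sema6a was at 8.15 ± 0.754 and 9.38 ± 0.252 FPKM, Sema6b at 23.1 ± 1.42 and 21.6 ± 2.20 FPKM and Sema6c at 23.6 ± 2.13 and 25.8 ± 3.13 FPKM in WT and cKO. The thrombospondin-repeat semaphorins Sema5a (4.52 ± 0.586 and 4.06 ± 0.360 FPKM) and Sema5b (4.37 ± 0.129 and 3.84 ± 0.584 FPKM) had overlapping groups.

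**Figure D3:**
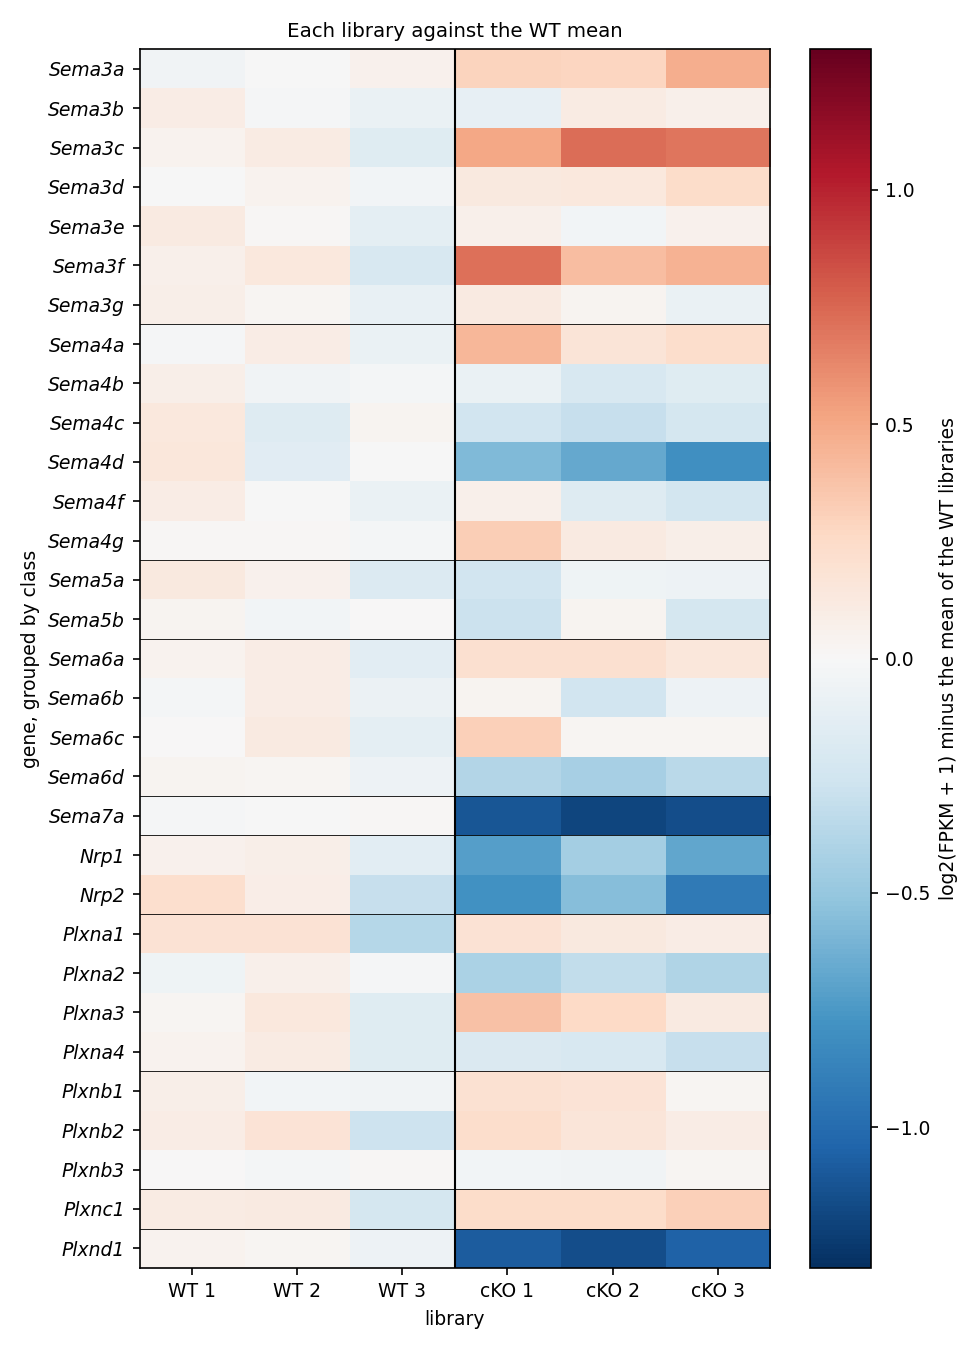
Log2(FPKM + 1) of each member (rows, grouped by class) in each library (columns) minus the mean of the WT libraries, from blue (lower) to red (higher). The 3 cKO columns share their colour in Sema3c, Sema3f, Sema7a, Nrp1, Nrp2 and Plxnd1, and WT 3 lies below the WT mean in most rows, as in Plxna1.

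The order of levels within the group changed at its top. In WT, Sema7a had the highest mean per exon length, followed by Plxna4 at 40.2 ± 3.86 FPKM, whose highest library overlapped the range of Sema7a, and by Plxna2, Plxna1 and Plxna3 at 31.4 to 33.3 FPKM. In cKO, Plxna3 (37.6 ± 3.62 FPKM), Plxna1 (34.5 ± 1.14 FPKM) and Plxna4 (34.0 ± 1.36 FPKM) came first, with overlapping ranges, and Sema7a was at rank 12 of the 31. Plxnd1 went from rank 14 to rank 21, and Sema3c from rank 13 to rank 6. The lower end was the same 5 genes in both groups, Sema3e, Sema3d, Sema3g, Sema3b and Plxnb3, in that order. Summed over all 31, the level was 421 to 476 FPKM in WT against 413 to 444 FPKM in cKO, and these ranges overlap.

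**Figure D4:**
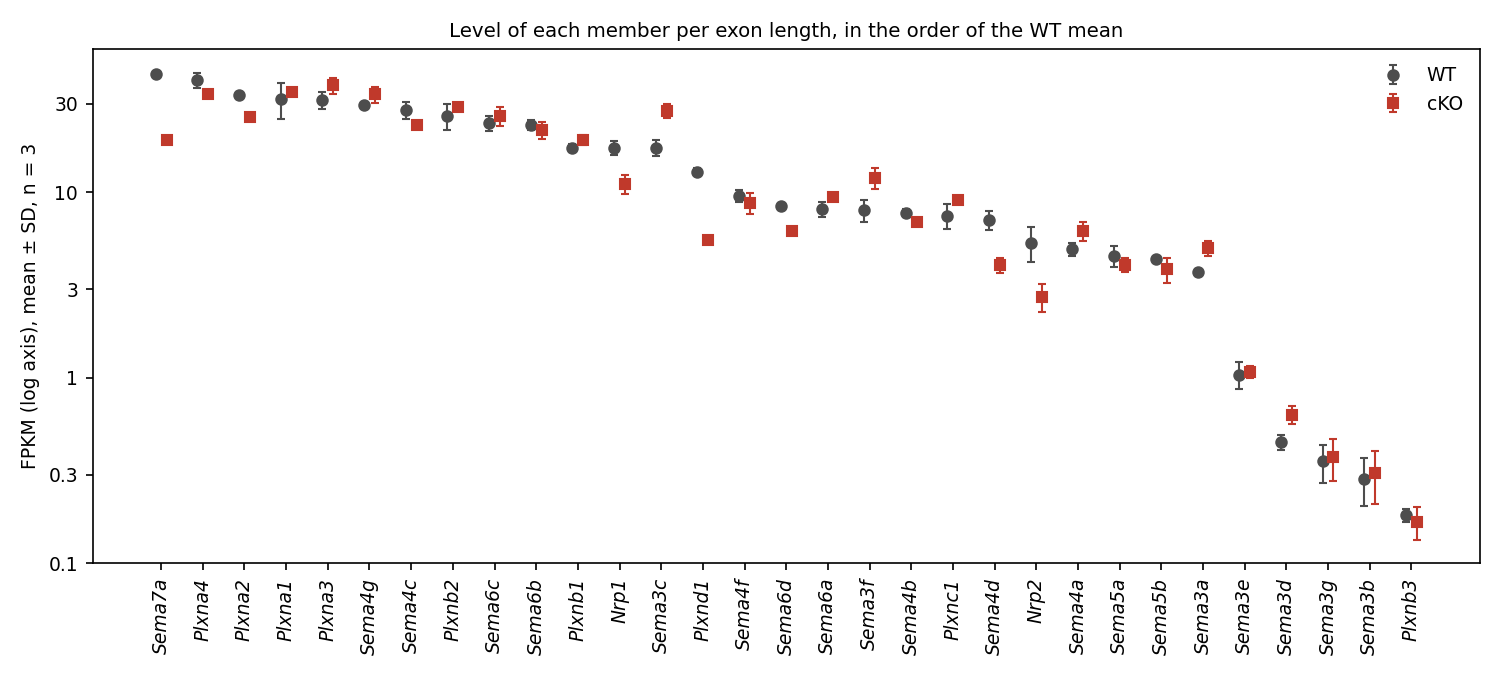
Mean FPKM ± SD (n = 3, log axis) of the 31 members in WT (grey circles) and cKO (red squares), in the order of the WT mean. Sema7a leads in WT at 43.5 FPKM and lies at 19.0 FPKM in cKO, and 5 genes lie near or under 1 FPKM in both groups.

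Tcf4 belongs to the E-proteins, helix-loop-helix factors that bind DNA at E-boxes, with the letters CANNTG. This motif and the form CAGGTG or CACCTG were searched in the 250 bases before each RefSeq start site (build GRCm38.p6, the same assembly as mm10), and since both searches read the same on either strand, 1 pass covers both. The second form is contained in the first. A CANNTG match was found in 19 of 37 windows of 26 members (51.4%), against 66.2% of the 32841 windows of all genes, and the narrower form in 5 of 37 (13.5%), against 17.2%. The sequences of 4 members that passed are shown, with the 2 largest falls, a co-receptor and a ligand that rose. Their windows hold no annotated exon. Windows of Sema6d and Sema4d that also hold none are not shown, among them a Sema6d window with a CAGGTG match. Each runs 5′ to 3′ on the strand of its gene, in lower case with CANNTG matches in capitals.
Sema7a promoter, chr9:57939862-57940111, plus strand: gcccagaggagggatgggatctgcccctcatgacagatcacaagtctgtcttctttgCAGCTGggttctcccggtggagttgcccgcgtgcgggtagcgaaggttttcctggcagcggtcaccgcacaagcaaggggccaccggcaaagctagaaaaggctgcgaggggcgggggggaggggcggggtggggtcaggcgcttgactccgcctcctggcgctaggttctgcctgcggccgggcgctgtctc
Plxnd1 promoter, chr6:115995006-115995255, minus strand: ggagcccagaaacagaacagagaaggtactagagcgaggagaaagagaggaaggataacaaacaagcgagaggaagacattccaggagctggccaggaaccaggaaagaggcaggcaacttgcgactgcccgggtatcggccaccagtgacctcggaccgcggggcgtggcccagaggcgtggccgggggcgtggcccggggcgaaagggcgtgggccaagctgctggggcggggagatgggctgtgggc
Nrp1 promoter, chr8:128358823-128359072, plus strand: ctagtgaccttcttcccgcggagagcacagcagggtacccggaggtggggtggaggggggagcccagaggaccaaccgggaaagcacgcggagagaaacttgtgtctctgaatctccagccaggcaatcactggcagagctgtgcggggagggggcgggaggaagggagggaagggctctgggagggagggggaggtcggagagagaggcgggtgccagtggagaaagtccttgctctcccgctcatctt
Sema3a promoter, chr5:13396534-13396783, plus strand: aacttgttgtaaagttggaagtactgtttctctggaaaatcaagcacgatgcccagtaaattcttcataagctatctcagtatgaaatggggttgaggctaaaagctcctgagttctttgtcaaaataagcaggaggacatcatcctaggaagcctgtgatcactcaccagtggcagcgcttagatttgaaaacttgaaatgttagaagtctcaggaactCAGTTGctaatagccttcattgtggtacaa
The Sema7a window holds 1 match (CAGCTG), and the Sema3a window 1 match (CAGTTG). Those of Plxnd1 and Nrp1 hold none, which says only that these letters are absent from these 250 bases. RefSeq start sites can differ from the gene bounds given above, and the Sema3a and Nrp1 windows lie inside those bounds.

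Other genes of semaphorin signalling were taken from 4 lists, with 71 of 74 listed genes measured. Of these, 4 rose, 6 fell and 61 did not pass (14.1% called, near the 15.8% of all genes), and the median change was −0.01 on the log2 scale. The 4 rises depended on the libraries, with none left without cKO 1 or cKO 3 (0 of 71), 1 without WT 1 or cKO 2, 2 without WT 3 and 8 without WT 2. Among 16 membrane partners, 2 fell and none rose. Cntn2, an axonal adhesion molecule that can join the Sema3a receptor complex, measured 100.1, 103 and 100.1 FPKM in WT against 17.6, 17.1 and 16.1 FPKM in cKO (5.96-fold lower, limma adjusted p = 9.54e-09). Nrcam, which associates with Nrp2, was at 52.0, 52.1 and 43.4 FPKM in WT against 34.5, 35.6 and 35.1 FPKM in cKO (1.40-fold lower, limma adjusted p = 0.00337). L1cam (71.3 ± 9.05 and 71.9 ± 5.37 FPKM) and Chl1 (102 ± 11.8 and 101 ± 5.90 FPKM), which associate with Nrp1, did not pass.

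Among 24 kinases, collapsin response mediators and cytoskeletal effectors, Mical2 fell. Mical2, an oxidase that disassembles actin and belongs to the family that couples plexins to the cytoskeleton, measured 10.2, 10.9 and 10.4 FPKM in WT against 3.13, 2.82 and 2.26 FPKM in cKO. The groups lie far apart, and the level was 3.83-fold lower (log2 change −1.63, SE 0.0943, limma adjusted p = 5.85e-06). Its relative Mical3 rose 1.26-fold and the kinase Rock1 1.19-fold, but Mical3 passed without WT 2 and in no other fit that left out a library (limma adjusted p of up to 0.162), and Rock1 only without WT 2 or WT 3 (up to 0.150). Mical1 did not pass, nor did the mediators Dpysl2 (190 ± 16.6 and 191 ± 10.1 FPKM) and Dpysl3 (586 ± 30.6 and 549.0 ± 11.0 FPKM).

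Of 21 GTPases and regulators, Rnd1 and Rasa1 rose, Rnd3 fell and 18 did not pass. Rnd1, a GTPase that binds plexins directly, measured 10.3, 11.1 and 8.27 FPKM in WT against 14.0, 12.7 and 15.2 FPKM in cKO (1.41-fold higher, limma adjusted p = 0.0148). Rnd3, of the same family, was at 13.1, 13.3 and 15.03 FPKM in WT against 7.85, 8.996 and 9.77 FPKM in cKO (1.56-fold lower, limma adjusted p = 0.00197). Rnd1 lost its call without cKO 1 or cKO 3 (limma adjusted p of up to 0.0561), and Rasa1 kept it only without WT 2 (up to 0.141). Of 10 neuropilin ligands of the VEGF family and semaphorin-cutting proteases, Adamts1 (3.61 ± 0.523 to 1.90 ± 0.245 FPKM, limma adjusted p = 0.00285) and Vegfd (1.04 ± 0.223 to 0.543 ± 0.0194 FPKM, limma adjusted p = 0.0134) fell. Vegfd lost its call without cKO 1 (limma adjusted p = 0.0524).

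Several members are also expressed by cells other than projection neurons. Plxnd1 and Nrp1 are known from endothelium, and none of 14 measured endothelial markers passed, with sums of 58.7 to 67.9 FPKM in WT against 56.5 to 61.8 FPKM in cKO. Of 9 mural and fibroblast markers none passed either (32.6 to 38.7 and 30.4 to 32.5 FPKM). Neuropilins are carried by migrating interneurons. Of 12 interneuron markers 5 fell and none rose, with sums of 210 to 236 FPKM in WT against 206 to 223 FPKM in cKO. The median change of these 12 was −0.22 on the log2 scale, with 1 positive. The positive one, Npy, was the most abundant of them (89.6 FPKM in WT, 106 FPKM in cKO, limma adjusted p = 0.158). Sema4d is known from oligodendrocytes, and of 9 lineage markers 3 fell and none rose (85.7 to 95.2 and 67.1 to 76.7 FPKM). All 8 astrocyte markers fell, from sums of 103 to 134 FPKM to 59.9 to 76.6 FPKM, and 4 of 9 microglia markers fell (31.5 to 37.5 and 20.1 to 27.7 FPKM). Plxnd1 is also known from intracortical projection neurons. Of 12 upper-layer markers 5 fell and 1 rose (331 to 368 and 337 to 343 FPKM). Of 12 markers of layers 5 and 6, 5 fell and 2 rose (330 to 357 and 286 to 295 FPKM). Of 10 markers of radial glia and progenitors 2 rose and 1 fell, with sums of 584 to 599 FPKM in the WT libraries and 384 to 494 FPKM in the cKO libraries. The median change of these 10 was 0.10 on the log2 scale with 6 positive, and Fabp7, a lipid-binding protein of radial glia and astrocytes, made up most of the sum (454 FPKM in WT, 312 FPKM in cKO, limma adjusted p = 0.00562). Of 10 subplate markers 5 rose and 1 fell (45.4 to 58.1 and 45.9 to 56.7 FPKM). The median change of the subplate markers was 0.42 on the log2 scale, with 8 positive. Nr4a2, the subplate marker that fell, made up most of their WT sum (33.4 FPKM in WT, 15.2 FPKM in cKO, limma adjusted p = 0.00111). No measured marker of these lists was at 0 in any library, and the part of these cell types in the changes of the members was not tested.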

How the data were processed

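The authors deposited FPKM values for 15703 genes in 6 libraries, named as FPKM per the file headers. The tools named in the submitters' processing notes are bcl2fastq 1.8.4, STAR 2.5.4b, featureCounts 1.6.1, DESeq2 1.22.1 and R 3.4.1, with the build mm10. Which annotation release, strand setting and low-gene filter the authors used is not given in the sources used here. Groups and replicate numbers came from the sample titles.

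Limma 3.58.1 in R 4.3.3, with a mean-variance trend and robust moderation, was fitted to log2(FPKM + 1) of the whole table with a genotype term alone, 2-sided, with Benjamini-Hochberg adjustment and a threshold of 0.05. The fit was tested on simulated data with independent noise for each gene, which lack the trend with exon length seen in WT 3. Exon lengths, GC content and coordinates came from GENCODE M21 on mm10, which matched 15661 genes. Reads were approximated as FPKM times exon length times a library size chosen so that values up to 50 reads came out whole (94.7% to 95.9% within 0.1 of a whole read, against a median of 19.8% to 20.0% over other sizes). Promoter windows came from RefSeq. Python 3.11.15, pandas 2.3.3, numpy 2.4.6 and matplotlib 3.10.9 made tables and figures. The members and gene lists were chosen with earlier results of these data known. All members are named. From each signalling list, up to 6 genes that passed, with the smallest p, are named, and further genes as values only, chosen after their values were seen. Alternatives were the pseudocount, a filter on low genes, rescaling, quantile normalisation, limma without trend or robust moderation, a length and GC correction, the replicate number as a block, leaving out each library and, chosen after seeing the data, limma's voom on the recovered reads.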

Additional observations from a re-analysis of the deposited data

How the results depend on the processing

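Of the 10 members that passed, 9 passed under all 16 alternatives, and the exception was Sema3a, which missed under 4. The number of members called higher, 3, was 7 with voom on the recovered reads, where Sema3d, Sema4a, Plxna3 and Plxnc1 were added, and 2 to 5 when leaving out each library (5 without WT 2). The number called lower, 7, was 7 to 9 under all alternatives, with Sema4c and Plxna4 added in some. Over all genes, 1134 were called higher and 1349 lower. With values rescaled to the same sum (TPM), 1773 were higher and 1051 lower, and members numbered 4 and 7. Leaving out each library gave 544 (without WT 1) to 1572 (without WT 2) higher and 830 to 1517 lower for all genes, and 0 to 8 higher for the signalling lists. The lists' 4 rises became 1 in limma without trend or robust moderation, and their 6 falls became 10 with the replicate number as a block together with the length and GC correction.

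The replicate numbers did not pair the libraries: same-numbered WT and cKO libraries had correlations of their deviations of −0.05, 0.10 and −0.05, and WT 1 correlated best with cKO 3 (0.21). With the replicate number as a block, 4 members were higher and 9 lower (1274 and 1541 of all genes).

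Changes of sign occurred in 5 members that did not pass. Plxna1 ranged from −0.049 to 0.232 on the log2 scale when leaving out each library, Sema3b from −0.020 to 0.083, Sema3e from −0.035 to 0.086 and Sema3g from −0.028 to 0.074. Sema3e was at −0.027 with the length and GC correction, with and without the block, and Plxnb3 at 0.008 with quantile normalisation. The cause of these differences was not tested. The planned count models on recovered reads, edgeR and DESeq2, were not run because the table holds no counts.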
